A study of Mus musculus with 4 samples.

Results

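Fully methylated CpG-dense clusters are stretches of mouse DNA that are rich in CpG dinucleotides and yet carry methylation at most of them. They were chosen by position, by density and by the methylation level of a pair of libraries. A cluster was a run of at least 3 CpGs, each with 10 or more reads in every one of the 4 libraries, with neighbours at most 100 bp apart. The density of a cluster was the average, over its CpGs, of how many CpGs lay within 100 bp of each, itself included, counting every CpG that any of the libraries listed. An autosomal cluster was kept where its density was at least 12 and where the summed reads of the 0-division and 1-division libraries were at least 80% methylated. This left 1183 of 99566 clusters, or 1.19%, and 6.0% of the 19703 autosomal CpG-dense clusters. The 1183 clusters held 10479 tested CpGs.

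The assay was reduced representation bisulfite sequencing (RRBS), which reads short fragments cut at CCGG by the enzyme MspI, here selected at 40 to 220 bp per the labels. The cells were secondary mouse embryonic fibroblasts (MEFs) of a 129/SvJ x C57/B6 hybrid in which doxycycline switches on the reprogramming factors; the uninduced control cells carry the same inducible factors. There were 4 libraries, 1 per group, which are called control, 0-division, 1-division and >3-division. The last 3 came from cells held in doxycycline for 96 hours at 2 ug/ul and had divided 0, 1 or at least 3 times on average; one label gives the last cohort as >3. The labels name media with 10%, 15% and 0.5% serum without tying the starvation medium to a cohort, and they give no age or sex for the embryos. Summed reads over listed CpGs ran from 84606824 in control to 94775128 in the >3-division library. Methylated reads made up 26.0% of all in the >3-division library against 44.4% in control. This share weights CpGs by their reads, and the libraries read them unevenly. Autosomal CpG-dense clusters under 20% methylated had 46028561 reads in the >3-division library and 28151327 in control. Over all clusters of the series, the median difference in level, >3-division minus control, was -1.28 points. With 1 library a group, every test below compares libraries and not conditions, and no spread between cultures can be given. The 0-division and 1-division libraries chose the clusters, so their levels are a description.

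In mammals much CpG-dense sequence lies in CpG islands, many of them at the starts of genes, and stays unmethylated. The dense sequence that is methylated in body cells includes promoters of germ-cell genes, which DNMT3B methylates in the early embryo, and the promoters of transposable elements, where methylation is part of silencing. The promoter at the start of a mouse L1 element is built of tandem monomers, and the long terminal repeats of endogenous retroviruses also exist in many copies. Methylation is copied to the new DNA strand at division by DNMT1 with its partner UHRF1, so that incomplete copying dilutes it in dividing cells.

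The annotation at hand lies on GRCm38.p6 and the deposited positions on mm9, so no gene was assigned by coordinate. Clusters were instead compared by the distances between successive listed CpGs, which do not depend on the build. Of the 1183 clusters, 869 (73.5%) held a run of 8 successive distances that also stood, in either orientation, at another place in the CpG-dense sequence, 5 of them only within themselves. Among 17570 autosomal CpG-dense clusters under 20% methylated, 1757 (10.0%) did so, and among 950 clusters between 20% and 80%, 227 (23.9%) did so. A run found at 20 or more places was held by 58.8% of the methylated clusters, by 0.933% of those under 20% and by 8.11% of those between. Runs of 5 distances stood at another place in 96.2% of the methylated clusters and 96.6% of those under 20%, but at 20 or more places in 67.6% of the methylated clusters, 38.9% of those under 20% and 27.1% of those between. Shared runs joined the clusters into groups. The largest held 525 of the 1183 clusters (44.4%), the next 161 (13.6%) and the third 83 (7.02%); they are called groups 1, 2 and 3. Groups 1 to 3 spread over 19, 18 and 19 autosomes and held 532, 163 and 88 CpG-dense clusters in all, none of them under 20% methylated. A further 319 clusters (27.0%) shared no run of 8 with another cluster.

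Windows of 300 bases around RefSeq gene starts, 250 before and 50 after, were searched for the same CpG spacing. A match needed at least 8 CpGs with every listed CpG of the aligned stretch among the CpGs of the window. The windows of a pair of genes matched many clusters of groups 1 and 2 on many chromosomes, and they are printed because they show what the repeated sequence looks like. That of Gm5636 matched 109 clusters of group 1 (20.8%). That of A230004M16Rik matched 53 clusters of group 2 (32.9%). These windows stand for the repeated sequence and not for a place of the clusters. Capitals mark CpGs tested in most of the matched clusters; the sequences are RefSeq's on GRCm38.p6, at chrX:47436492-47436791 on the minus strand and chr11:41710094-41710393 on the plus strand, and read 5′ to 3′ along the gene.
Gm5636: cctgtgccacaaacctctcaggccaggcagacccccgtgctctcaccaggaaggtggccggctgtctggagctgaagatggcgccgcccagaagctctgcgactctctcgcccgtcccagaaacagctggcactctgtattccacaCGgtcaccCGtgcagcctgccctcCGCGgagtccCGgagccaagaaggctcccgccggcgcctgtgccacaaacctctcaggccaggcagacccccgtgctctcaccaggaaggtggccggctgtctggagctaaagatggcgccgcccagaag
A230004M16Rik: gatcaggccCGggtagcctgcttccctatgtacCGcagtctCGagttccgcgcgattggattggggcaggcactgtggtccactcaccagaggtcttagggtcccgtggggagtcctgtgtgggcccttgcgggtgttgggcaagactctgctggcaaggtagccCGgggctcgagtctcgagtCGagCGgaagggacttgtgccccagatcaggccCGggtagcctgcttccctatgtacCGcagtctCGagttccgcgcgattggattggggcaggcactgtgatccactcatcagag
The Gm5636 window repeated itself at a step of 206 bp, with 93 of 94 compared bases identical. The A230004M16Rik window did so at 208 bp, with 90 of 92. Over all steps from 50 to 250 bp the median identity was 28.0% and 26.7% for these windows in turn. In the first window the capitals stand at distances of 8, 16, 2 and 8 bp, the pattern of the 5 tested CpGs that 319 clusters of group 1 held exactly, and the last of the 5 lies in a CCGG, the MspI site. No repeat annotation was used, so the groups keep their numbers.

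A match on the cluster's own chromosome and in the matching strand was found for 10 of the 1183 clusters (0.845%). It was found for 6135 (34.9%) of the clusters under 20% and 67 (7.05%) of those between 20% and 80%. These classes differed in size, with medians of 6 CpGs over 77 bp, 17 over 213 bp and 13 over 164 bp in turn. The part of size in the shares matched was not tested. Leaving out clusters that share a run with another cluster, and the window that group 2 matched, 7 clusters fell on the windows of 9 genes. These matches were made after the values had been seen and lie outside the rule by which clusters are otherwise named. The genes are Mael, which takes part in transposon silencing by piRNAs in germ cells; Btbd18, a regulator of piRNA precursor genes, whose window overlaps that of its divergent neighbour Ctnnd1, the gene of p120 catenin; Slc25a31, the ADP/ATP carrier of sperm; Dmrtb1, a transcription factor of spermatogenesis; Naa11, an N-terminal acetyltransferase, with the neighbouring transcript 4930467D21Rik; Hsf5, a heat shock factor of spermatocytes; and Dazl, an RNA-binding protein of germ cells. The windows of Mael, Slc25a31 and Hsf5 are printed because, of the 7, they hold the called loss, the smallest and the largest difference between the >3-division and the control library. They lie on GRCm38.p6 at chr1:166238695-166238994 on the minus strand, chr3:40708621-40708920 on the plus strand and chr11:87616914-87617213 on the plus strand, are taken from RefSeq, and have the tested CpGs in capitals.
Mael: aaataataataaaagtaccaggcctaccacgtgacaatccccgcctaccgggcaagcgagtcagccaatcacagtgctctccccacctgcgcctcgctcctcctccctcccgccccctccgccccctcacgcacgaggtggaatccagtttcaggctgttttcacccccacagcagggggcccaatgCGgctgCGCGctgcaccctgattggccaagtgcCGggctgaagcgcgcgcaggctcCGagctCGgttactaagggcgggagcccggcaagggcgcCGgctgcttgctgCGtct
Slc25a31: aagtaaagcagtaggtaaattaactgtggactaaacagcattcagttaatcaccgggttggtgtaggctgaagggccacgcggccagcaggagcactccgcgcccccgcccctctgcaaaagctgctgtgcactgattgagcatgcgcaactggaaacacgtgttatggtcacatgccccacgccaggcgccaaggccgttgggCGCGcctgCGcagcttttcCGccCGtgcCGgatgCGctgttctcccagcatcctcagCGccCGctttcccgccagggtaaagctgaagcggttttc
Hsf5: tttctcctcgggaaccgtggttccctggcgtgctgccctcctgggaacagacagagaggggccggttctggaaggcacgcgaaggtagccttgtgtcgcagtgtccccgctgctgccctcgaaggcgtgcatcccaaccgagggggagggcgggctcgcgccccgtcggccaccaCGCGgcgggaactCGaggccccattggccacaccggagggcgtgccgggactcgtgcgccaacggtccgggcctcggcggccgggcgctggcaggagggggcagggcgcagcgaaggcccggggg
The Mael window held 24 CpGs, of which 21 were matched and 8 tested. The Slc25a31 window held 22 CpGs with 9 tested, and the Hsf5 window held 34 CpGs with 3 tested. The Dazl match rested on 8 of the window's 28 CpGs, the minimum asked. The other windows had 12 to 28 CpGs matched.

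The clusters were highly methylated in all 4 libraries, including the pair that did not choose them, but few CpGs were methylated in every read. The median level of a cluster was 89.5% (control), 88.9% (0 divisions), 89.4% (1 division) and 88.1% (>3 divisions). In control the levels ran from 69.5% to 98.8%, with 19 clusters under 80% and 509 over 90%. In the >3-division library they ran from 7.44% to 99.2%, with 120 clusters under 80%, 3 under 50% and 349 over 90%. At single CpGs, 4.52% of 10479 were at 100% in the >3-division library and 2.49% in control, so that "fully methylated" in the rule's sense means a level near 90%. A CpG under 50% was found in 171 clusters in the >3-division library and in 54 in control. Inside a cluster the lowest and highest CpG lay a median of 19.2 points apart in the >3-division library and 16.8 points apart in control.

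**Figure D1:**
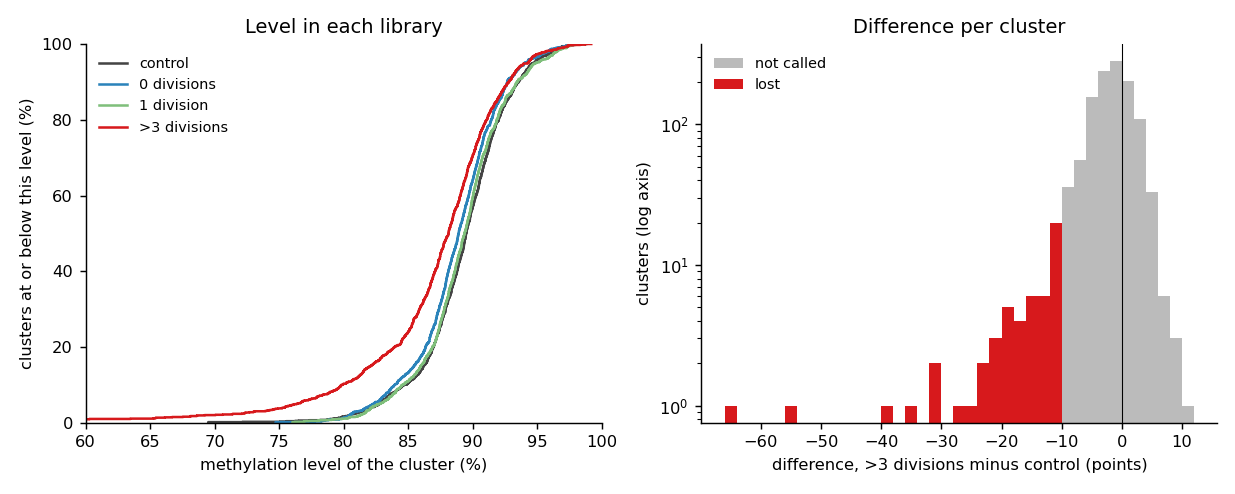
Left, the cumulative share of the 1183 clusters (%) against the methylation level of the cluster (%) in each of the 4 libraries, drawn from 60%, below which 9 clusters of the >3-division library and none of the others lie. Right, the number of clusters (log axis) by the difference between the >3-division and the control library in percentage points, with the 54 called lost in red; most lie within a few points below 0 and a thin tail reaches -64.7 points.

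The >3-division library was lower than control at 828 of the 1183 clusters (69.99%), beside 72.5% of all 99566 clusters, and by a small amount at most of them. The median difference was -1.71 points, with quartiles of -4.16 and 0.544 points. A common odds ratio, >3-division over control, was pooled over all 99566 clusters by the Mantel-Haenszel method. It was 0.715 and is called the library-wide odds ratio. Against the level that this ratio gives from control, the median difference turned sign and was 1.62 points. A cluster was called lost or gained where Fisher's exact test, two-sided, passed an adjusted p of 0.05 (Benjamini-Hochberg over all 99566 clusters) and the level differed by at least 10 points. By this rule 54 clusters (4.56%) were lost, beside 11.0% of all clusters of the series, and 0 were gained, beside 0.577% of all clusters; 1 cluster was higher by at least 10 points without passing the test. Autosomal clusters at or over 80% in sequence of intermediate density had 2594 of 27071 lost (9.58%) at a median difference of -2.75 points. Those in CpG-poor sequence, with a density of at most 4, had 1391 of 12998 lost (10.7%) at -2.46 points. Over all clusters the median difference was -1.28 points. Of the other CpG-dense clusters, 288 of 950 between 20% and 80% were lost (30.3%), and 38 of 17570 under 20% (0.216%), where little methylation was there to lose.

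By Fisher's exact test with at least 20 points of difference, 219 of the 10479 CpGs (2.09%) were lost, beside 3.05% of the 1045368 CpGs of the series with 10 or more reads in every library. Another 5 CpGs (0.0477%) were gained, beside 0.0865% in the series. The lost CpGs lay in 147 clusters, and 47 clusters held at least 2 of them. Of the 219, 65 lay in the 54 lost clusters, which held 577 CpGs. In 18 of the 54, every tested CpG was lower in the >3-division library.

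Lost clusters had fewer reads in the >3-division library. The 54 lost clusters had a median of 222.5 reads in the >3-division library against 670.5 in control, a median ratio of 0.382. The 1129 that were not called had 398 in the >3-division library and 420 in control, a median ratio of 0.985. Of the 229 clusters with a ratio under 0.5, 43 were lost (18.8%) and the median difference was -5.16 points. Of the 954 with a ratio of 0.5 or more, 11 were lost (1.15%) and the median difference was -1.26 points. The same split, made after the values had been seen, gave 16.4% of 11242 and 4.74% of 15829 clusters lost at intermediate density and 19.7% of 4527 and 5.87% of 8471 in CpG-poor sequence, in that order of the ratio. Where the ratio lay between 0.8 and 1.2, the share lost was 0.185% of 542 methylated CpG-dense clusters, 2.62% of 6936 at intermediate density and 4.42% of 2556 in CpG-poor sequence. Depth thus moved with the loss in all 3 classes, and its part in the result was not tested.

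**Figure D2:**
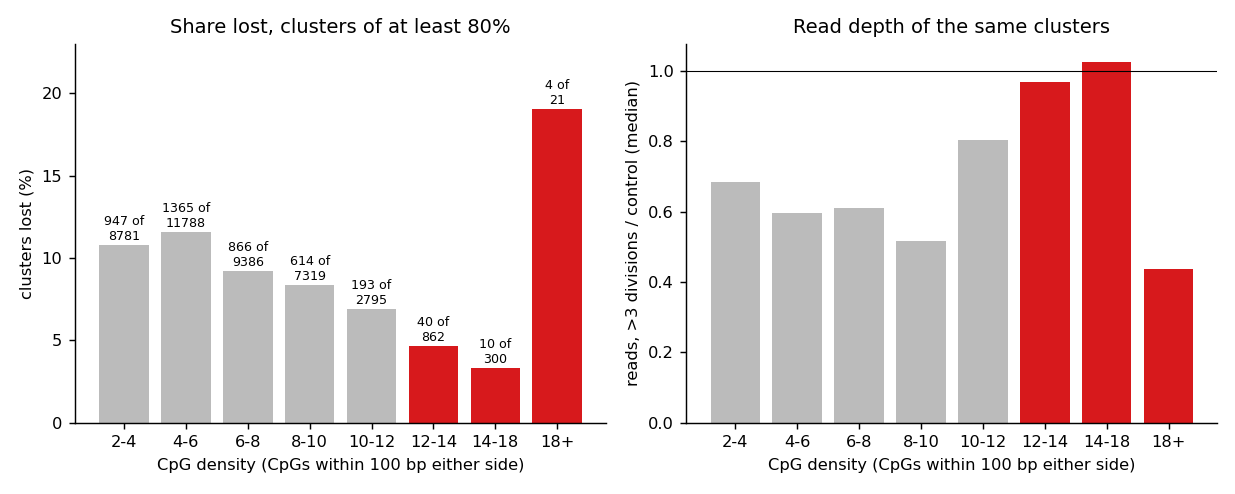
Autosomal clusters at or over 80% by CpG density, the number of CpGs within 100 bp on either side; red bars are the CpG-dense clusters and grey bars sparser ones. The left panel gives the share lost between the >3-division and the control library (%) with the counts above each bar, and the right panel the median ratio of their reads: the share lost was 10.8% at a density of 2 to 4 and 3.33% at 14 to 18, and the bar at 18 or more rests on 21 clusters.

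Across density the share lost was 10.8% of 8781 clusters at a density of 2 to below 4, 11.6% at 4 to below 6, 9.23% at 6 to below 8, 8.39% at 8 to below 10 and 6.91% at 10 to below 12. It was 4.64% of 862 clusters at 12 to below 14 and 3.33% of 300 at 14 to below 18. Among the 21 clusters at 18 or more, 4 were lost (19.0%). The median read ratio over the same steps was 0.685, 0.596, 0.610, 0.516, 0.803, 0.968, 1.03 and 0.438. The steps with the fewest losses were those with the highest read ratio, and the 21 densest clusters had both the lowest ratio and the highest share lost.

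The groups that share CpG spacing stood at different differences and depths. Clusters of a group can be alike in sequence, so reads may have been placed on the wrong one, which was not tested. In group 1 the median level was 89.2% in the >3-division library and 90.1% in control, the median difference -1.03 points and the median read ratio 1.06; 6 of 525 clusters (1.14%) were lost. In group 2 the median was 86.7% in the >3-division library and 89.1% in control, the difference -2.37 points and the ratio 1.08; 0 of 161 were lost and 136 were lower. In group 3 it was 79.9% in the >3-division library and 87.1% in control, the difference -6.41 points and the ratio 0.437; 13 of 83 (15.7%) were lost, and all 83 were lower in the >3-division library. After 0 divisions the median of group 3 was 86.8%, and after 1 division it was 87.1%. The 319 clusters that shared no run had a median difference of -1.75 points and a ratio of 0.643, and 31 (9.72%) were lost, a share near the 11.0% of all clusters. Outside the 3 largest groups, 35 of 414 clusters (8.45%) were lost. The 3 largest groups together held 769 clusters (65.0%), of which 19 (2.47%) were lost.

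**Figure D3:**
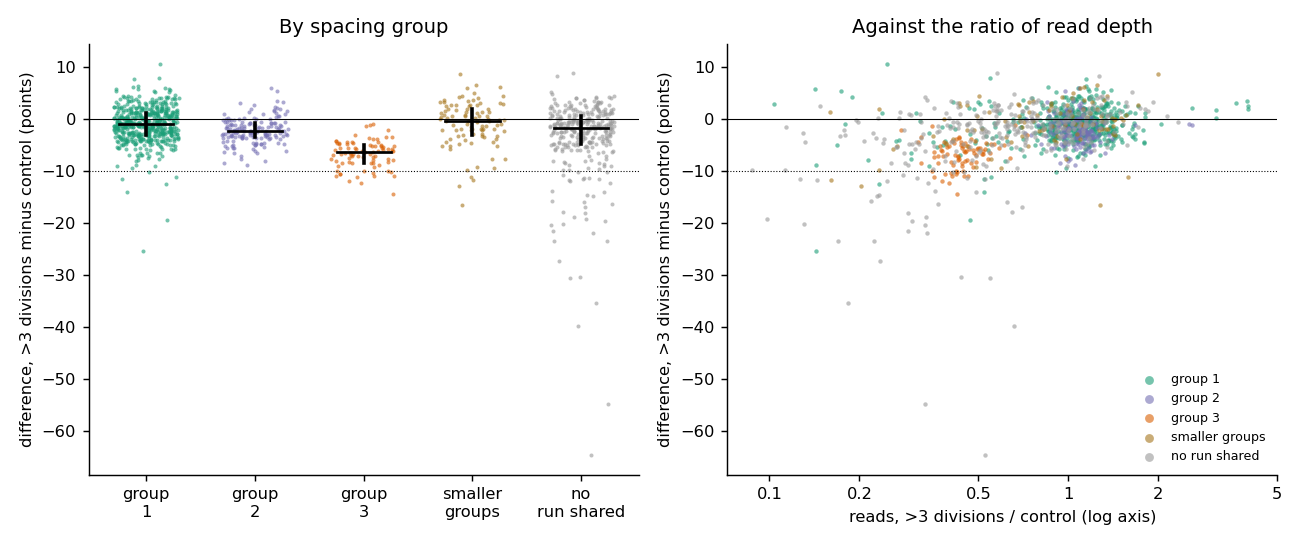
Each point is 1 of the 1183 clusters; the vertical axis is the difference between the >3-division and the control library in percentage points. On the left they are parted by spacing group, with the median and quartiles in black; on the right the horizontal axis is the ratio of reads, >3-division over control (log axis). Group 3 (orange) lies wholly below 0 at a median ratio of 0.437, and the largest differences are clusters that share no run (grey).

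Groups 1 to 3 also differed in shape. Clusters of group 1 had a median of 5 CpGs over 35 bp, those of group 2 had 7 CpGs over 77 bp and those of group 3 had 25 CpGs over 463 bp. The 3 clusters with the most CpGs, 74, 70 and 68, all belonged to group 3. The first of them, at chr5:90970576-90971860 on mm9, was 80.7% methylated in the >3-division library (95% Wilson interval 79.4 to 82.0; 3607 reads) and 87.3% in control (86.6 to 88.1; 7441 reads). Of its 74 CpGs, 60 were lower in the >3-division library. The other 2, at chr12:26733159-26734477 and chr14:93614371-93615689, differed by -5.15 and -5.92 points with 56 of 70 and 51 of 68 CpGs lower. All 3 passed the adjusted p of 0.05 and none reached 10 points; against the library-wide odds ratio the last 2 no longer passed, at -0.901 and -1.30 points (exact adjusted p = 0.612 and 0.456; at most 2.62e-05 under their other alternatives). Wilson intervals cover counting error only, since each group had 1 library. The RRBS reads carry no molecular identifiers here, so copied reads are not told apart and the intervals can be too narrow.

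Copies of a group list the same CpG at many places. The aligner is not known, and reads may have been placed on the wrong copy or shared between copies. The copies are therefore not taken as separate measurements. In group 1, 297 copies of the commonest run had the first 5 CpGs tested. Their median levels were 88.9%, 81.1%, 92.9%, 90.1% and 94.9% in the >3-division library and 89.6%, 82.8%, 93.4%, 90.7% and 95.2% in control. The order of the 5 CpGs was the same in both libraries, the second being the lowest and the fifth the highest, and 0 of these CpGs was lost. The ninth CpG of the same run, 118 bp from the first, had at least 10 reads in every library in 25 copies. There the median was 25% in the >3-division library and 75.7% in control, with 75.9% at 0 divisions and 86.5% at 1 division. Of the 25 copies, 8 were lost, beside 3.05% of all tested CpGs of the series. Reads at this ninth CpG were few, a median of 11 in the >3-division library and 34 in control. The other CpGs of that stretch, the sixth to the eighth, were covered in at most 5 copies.

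In group 3 the fall was uneven along the run. The third CpG had the largest median difference, -21.9 points, over 29 copies with a median of 12 reads in the >3-division library, and 4 were lost. The fourth CpG, 26 bp from the first, had a median of 76.2% in the >3-division library and 92.2% in control over 66 copies. Of the 66, 17 were lost, beside 3.05% of all tested CpGs of the series. Its median reads were 36.5 in the >3-division library and 111.5 in control. The fifth CpG, 20 bp further on, had 82.7% in the >3-division library and 87.2% in control, and 0 were lost. The ninth had 86.7% in the >3-division library and 93.4% in control, and 1 was lost. In group 2 the third CpG of the run had 84.8% in the >3-division library and 89.3% in control, while the ninth had 90.4% in the >3-division library and 90% in control, over 77 copies each.

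**Figure D4:**
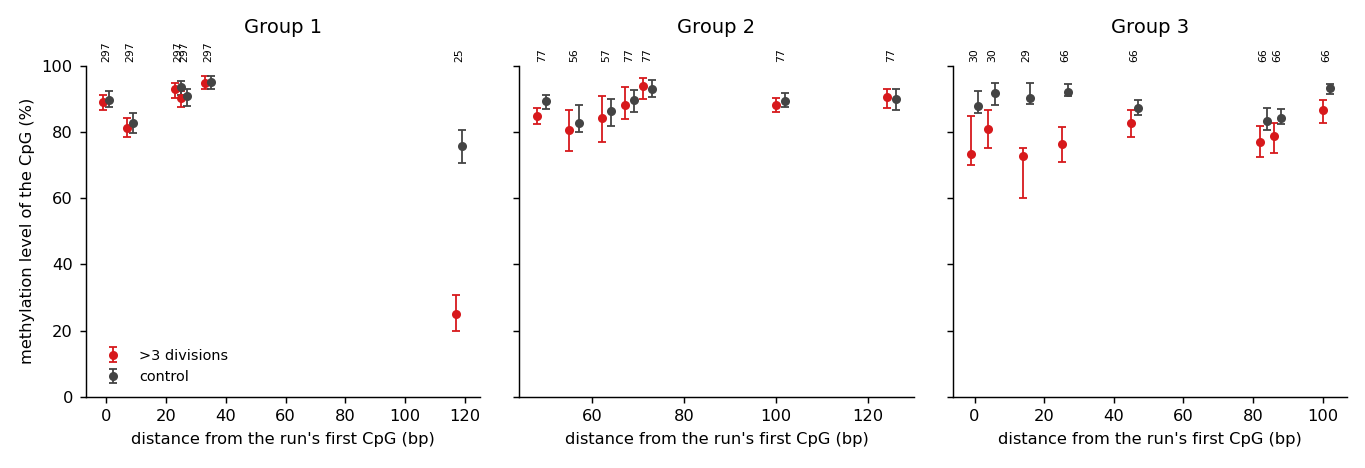
Median methylation level (%) of each CpG of the commonest shared run, by its distance from the run's first CpG (bp), in the >3-division (red) and control (black) libraries; bars are quartiles over copies, and the small numbers give the copies with 10 or more reads in every library. In group 3 the CpG at 26 bp stands at 76.2% in red and 92.2% in black, and in group 1 the lone point at 118 bp, from 25 copies, stands at 25% in red and 75.7% in black.

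Many of the clusters lay in rows. Of the 1183, 445 (37.6%) had another of them starting within 1000 bp, and 235 (19.9%) at 200 to 210 bp. The commonest distance from start to start was 206 bp, with 83 pairs, followed by 204 bp with 26, 205 bp with 24 and 412 bp with 14. Of the pairs at 200 to 210 bp, 127 joined clusters of group 1. The commonest step equals the 206 bp at which the printed Gm5636 window repeats itself. Clusters in a row share a sequence, so they are not independent of each other. The median distance from a methylated cluster to the nearest other one was 224522 bp and to the nearest CpG-dense cluster under 20% 200630 bp. Within 1000 bp, 2 of the 1183 had a cluster under 20%, against the 445 that had one of their own kind. A cluster under 20% had the next of its own kind at a median of 562 bp. By chromosome, the share of CpG-dense clusters that were methylated was highest on chromosome 14 (9.37%, 70 clusters) and chromosome 7 (8.88%, 125 clusters) and lowest on chromosome 11 (1.86%, 30 clusters).

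The 7 clusters at promoter windows of named genes were all lower in the >3-division library than in control, at a median difference of -9.48 points, and 1 was called lost. Over all clusters of the series, 72.5% were lower and 11.0% were lost. The 7 clusters had between 30 and 1330 reads in the >3-division library. At Mael, 18 tested CpGs at chr1:168168694-168168936 on mm9 had a level of 86.6% in control (95% Wilson interval 84.7 to 88.2; 1450 reads). The level was 81.7% at 0 divisions, 84.5% at 1 division and 72.4% at >3 divisions (69.0 to 75.6; 714 reads). The difference between the >3-division and the control library was -14.1 points (Fisher's exact test, adjusted p = 6.59e-13), with 14 of 18 CpGs lower. The Mael cluster had 8 of its 18 tested CpGs inside the printed window, so its values are not those of the window alone. It was no longer called lost under 6 of 11 alternative settings. Over the 11 the difference lay between -14.1 and -6.44 points and the exact adjusted p between 6.59e-13 and 0.0182. At Dmrtb1, 18 CpGs had 82.5% in the >3-division library and 87.1% in control (exact adjusted p = 0.0221), which passed the test but not the 10 points. The test was no longer passed at a minimum of 20 reads (exact adjusted p = 0.109), with thinning (0.229), with division by the overdispersion (0.168) or against the library-wide odds ratio (1), where the difference was -0.320 points. Its CpGs ran from 0% to 98.6% in the >3-division library and from 0% to 97.3% in control, so that the cluster held unmethylated CpGs in both. Of its 18 CpGs, 14 lay inside the window.

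At Slc25a31 the level stood at 92.6% in the >3-division library (91.1 to 93.9; 1330 reads) and 93.9% in control (92.3 to 95.1; 1140 reads), with overlapping intervals (exact adjusted p = 0.463). This small difference changed sign with neighbours at most 50 bp apart (0.0846 points) and against the library-wide odds ratio (1.01 points). At 0 divisions Slc25a31 stood at 90.5%, below the >3-division library. Of its 17 tested CpGs, 9 lay inside the window. At Dazl, 7 CpGs, 6 of them inside the window, had 92.7% in the >3-division library and 95.9% in control (exact adjusted p = 0.295). Its lowest CpG stood at 7.69% in the >3-division library and at 60% in control. The 0-division library stood at 91.8% there, also below the >3-division library. With neighbours at most 200 bp apart the Dazl cluster grew and differed by -24.4 points, a call of lost (exact adjusted p = 1.94e-99); under the other alternatives the exact adjusted p lay between 0.091 and 0.782 and the difference between -9.57 and -1.67 points. The other 3 rested on few reads in the >3-division library. The cluster between Btbd18 and Ctnnd1 had 86.0% there, from 43 reads, and 95.8% in control, from 382 (exact adjusted p = 0.0721). That of Naa11 and 4930467D21Rik had 85.7%, from 70 reads, and 95.2% in control, from 104 (exact adjusted p = 0.165). That of Hsf5 had 60%, from 30 reads with an interval of 42.3 to 75.4, and 83.6% in control, from 134 reads (exact adjusted p = 0.0524), the widest difference of the 7 at -23.6 points. The Hsf5 value rested on the choice of CpGs: it was -1.12 points with a minimum of 5 reads (exact adjusted p = 0.895) and -10.2 points with neighbours at most 200 bp apart, where it was called lost (exact adjusted p = 0.0474).

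**Figure D5:**
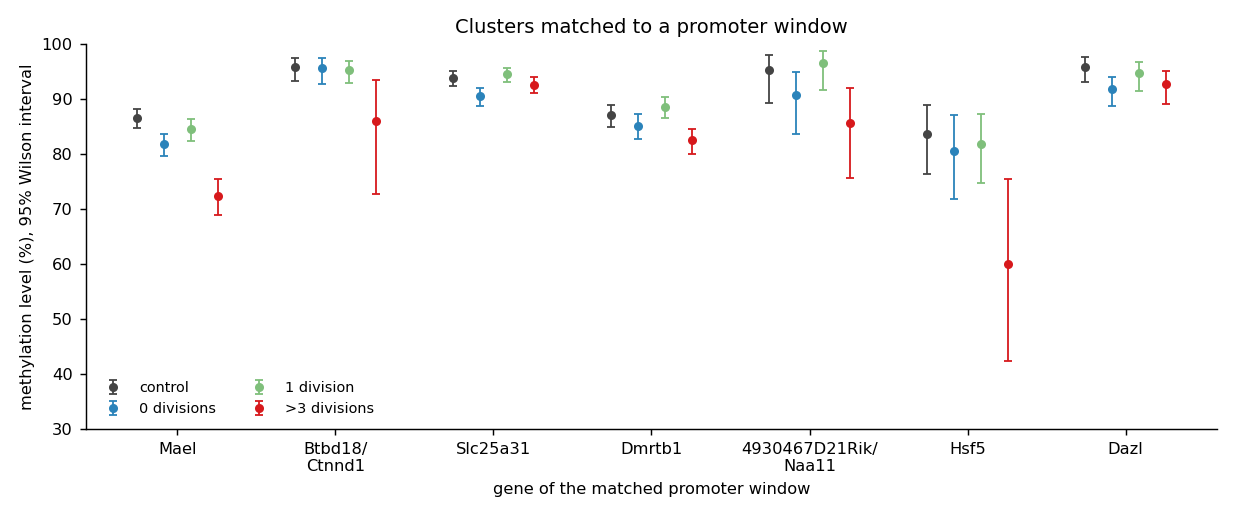
Methylation level (%) with 95% Wilson intervals, which cover counting error only, of the 7 clusters whose CpG spacing matched promoter windows, for control and then for 0, 1 and >3 divisions; the axis starts at 30%. The >3-division point is the lowest of the 4 at Mael, Btbd18/Ctnnd1, Dmrtb1, Naa11/4930467D21Rik and Hsf5, and the intervals of the >3-division and the control library do not overlap at Mael, Dmrtb1 and Hsf5.

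The 5 largest losses lay in short clusters of 3 or 4 CpGs that shared no run of 8 with another cluster, and 4 of the 5 fell on every CpG to below the lowest control CpG of the same cluster. At chr4:125747365-125747387 on mm9, 4 CpGs had levels of 72.2% (control), 78.8% (0 divisions), 81.1% (1 division) and 7.44% (>3 divisions; 95% interval 4.0 to 13.5; 121 reads), a difference of -64.7 points between the >3-division and the control library (exact adjusted p = 2.22e-31). None of its CpGs exceeded 9.68% in the >3-division library, and none was below 69.1% in control. At chr4:141031299-141031326, 3 CpGs had 26.8% in the >3-division library (82 reads) and 81.8% in control (247 reads). At chr14:55251225-55251237, 4 CpGs had 29.6% in the >3-division library (54 reads) and 69.5% in control (82 reads); this was also the lowest control level of the 1183, below its 86.7% and 90.3% in the 0-division and 1-division libraries. At chr1:191664811-191664818, 3 CpGs had 58.7% in the >3-division library (75 reads) and 94.1% in control (410 reads). At chr2:178141948-178141981, 4 CpGs had 52.2% in the >3-division library (157 reads) and 82.9% in control (286 reads). All 5 remained lost under each alternative setting that gave them a value.

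Dense clusters were found among the losses as well as outside them: the loss on chromosome 14 had a density of 20.5, the Mael cluster 19.9, and 4 of the 21 clusters at 18 or more were lost. The 3 with the highest density were not called. The densest, at chr5:144015236-144015388 with a density of 29, had 85.8% in the >3-division library and 88.9% in control (exact adjusted p = 0.212). The next, at chr5:93371421-93371448 with 27, had 86.9% in the >3-division library and 90% in control (exact adjusted p = 0.736), and chr7:20171722-20171839, with 24.9, had 82.0% in the >3-division library and 85.5% in control (exact adjusted p = 0.137). In each of the 3 the intervals of the libraries overlapped. The call at the second depended on coverage: with a minimum of 5 reads a longer cluster there differed by -13.7 points and was called lost (exact adjusted p = 2.84e-07), while its difference was 0.691 points with neighbours at most 200 bp apart; over all alternatives its exact adjusted p ran from 2.84e-07 to 1. The third lowest control level, 75.1% at chr7:9397586-9397655, went with a higher 79.6% in the >3-division library (exact adjusted p = 0.378); against the library-wide odds ratio it was 11.2 points higher and past the threshold (exact adjusted p = 0.0165, and up to 1 under the others), and at a minimum of 5 reads the difference was -0.358 points.

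At the edges of the rule, the 3 clusters just inside the 80% level had 73.1%, 80.2% and 81.6% in the >3-division library and 78.9%, 79.6% and 81.8% in control. The 3 just outside had 80.4%, 72.3% and 66.7% in the >3-division library and 81.6%, 78.8% and 78.2% in control. At a density of 12 exactly, the 3 first clusters by position had 88.6%, 84.8% and 96.8% in the >3-division library and 88.5%, 92.0% and 88.1% in control, and the 3 just below it, at 11.9, had 81.0%, 82.0% and 79.6% in the >3-division library and 87.8%, 87.0% and 79.6% in control.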

How the data were processed

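RRBS libraries of 4 MEF cultures, 1 per group, were used. The authors deposited, per library, CpG positions with methylated and unmethylated read counts; the build is mm9 per the submitters' processing notes, and positions are printed as listed. For the aligner, the caller and the conversion check, the sources used here give nothing. Levels, clusters and densities were computed with Python 3.11.15, NumPy 2.4.6, pandas 2.3.3 and SciPy 1.17.1. Members, lists and tests were chosen with earlier results of these data known. Fisher's exact tests were adjusted by the Benjamini-Hochberg method over all 99566 clusters or 1045368 CpGs and were tested on simulated data. P-values are too small, because reads carry no molecular identifiers and CpGs of a read are not independent. Clusters were named by a fixed rule: the 5 largest losses, the up to 5 largest gains (0 passed), and 3 each by most CpGs, highest density, lowest control level and nearness to each threshold. The groups by CpG spacing, the match to RefSeq windows (32851 windows of GRCm38.p6, a seed of 5 distances identical, at least 3 tested CpGs inside) and the split by read ratio were chosen after seeing the data. Other settings tried were coverage minimums, gaps, densities, levels and differences, thinning, equal CpG weight, overdispersion, a library-wide odds ratio and autosomes alone.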

Additional observations from a re-analysis of the deposited data

How the results depend on the processing

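The count of clusters lost was 54. It was 100 of 1583 with neighbours at most 50 bp apart (6.32%, beside 7.76% of all clusters) and 29 of 448 at 200 bp (6.47%, beside 15.4%). It was 22 against the library-wide odds ratio of 0.715 (1.86%, beside 4.11%) and 13 with a minimum difference of 20 points (1.10%, beside 3.85%). Beside 11.0% of all clusters, it was 247 of 3978 at a density of at least 10 (6.21%) and 11 of 105 at a density of at least 15 (10.48%). Beside the same 11.0%, it was 107 of 1335 at a pooled level of at least 70% (8.01%) and 13 of 424 at 90% (3.07%). Among settings chosen after the data were seen, it was 35 of 414 (8.45%) outside the 3 largest spacing groups. It was 31 of 319 (9.72%) without a shared run, both beside 11.0% of all clusters. The count gained was 0, and 1 with neighbours at most 50 bp apart (0.0632%, beside 0.514% of all clusters). Against the library-wide odds ratio it was 13 (1.10%, beside 2.83%). Beside 0.577% of all clusters, it was 2 at a density of at least 10 (0.0503%) and 1 at a level of at least 70% (0.0749%). The median difference of -1.71 points became -1.94 at a gap of 200 bp, -2.02 with equal weight per CpG, -2.40 at a density of 10 and -1.32 at a level of 90%. Against the level that the library-wide odds ratio gives it reversed to 1.62 points. The share lost was below that of all clusters under each alternative. It came closest at a density of at least 15, with 10.48% beside 11.0%. The number of clusters fell to 448 at a gap of 200 bp, was 3978 at a density of 10, 105 at 15 and 424 at a level of 90%. Coverage minimums of 5 and 20 reads, thinning, leaving out the deepest CpGs, division by an overdispersion of 1.69 and autosomes alone kept the count lost between 37 and 66. No paired analysis was possible because each group had 1 library, and for the same reason no library could be left out. Depth limits single clusters: at 30 reads the interval at Hsf5 spanned 42.3% to 75.4%.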

Other observations

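A group of CpG-dense clusters with a shared run of 8 distances held none of the methylated clusters and changed far more than they did. Its 64 clusters on 18 autosomes had a median of 17 CpGs over 165 bp at a density of 13.4. Its median levels were 67.3% (control), 67.0% (0 divisions), 69.4% (1 division) and 23.9% (>3 divisions). The median difference between the >3-division and the control library was -42.4 points, 63 of 64 were called lost, and all 64 were lower. Of all clusters of the series 11.0% were lost. Of the 950 CpG-dense clusters between 20% and 80%, which include these 64, 30.3% were lost at a median difference of -4.99 points. The median read ratio was 0.50. In group 3 the ratio was 0.437 and the median difference -6.41 points, from a median control level of 87.1%. The part of depth in either group was not tested.

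On the X chromosome 143 of 618 CpG-dense clusters reached the same 80%. Their median level was 88.4% in the >3-division library and 89.2% in control. Of the 143, 3 (2.10%) were lost, beside 37 of the 618 (5.99%) and 11.0% of all clusters of the series.

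Where the coverage minimum was asked of the control, 0-division and 1-division libraries only, longer runs joined and 791 clusters passed. Of these, 72 overlapped none of the 1183. They had a median of 7.75 reads per CpG in the >3-division library and 44.2 in control, and their pooled level was 88.4% in the >3-division library and 90.6% in control.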
